A study of Mus musculus with 9 samples.

Results

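The genes described here build, power and supply motile cilia, the beating hairs that line the airways. They were chosen by symbol alone: every gene whose symbol starts with Dnah, Rsph, Tekt, Cfap or Ift followed by a digit, together with Foxj1, Gmnc, Mcidas, Tppp3 and Ccdc39. The array carried 73 such genes among 22911 genes with a symbol, and 69 of the 73 passed the filter on dim probes, among 16593 genes tested. By name they comprised 10 dynein heavy chains, 7 radial spoke genes, 5 tektins, 32 Cfap genes, 14 Ift genes and the 5 genes listed singly. RNA came from whole lungs of male C57BL/6J mice (no other strain or allele is stated for any group), on one-colour Agilent arrays. Mice aged 12 weeks at the outset inhaled a 3.5% aerosol of IQOS (a device that heats tobacco without burning it), 3.5% smoke of cigarettes (CS) or fresh air over 6 months. Each group had 3 arrays, named IQOS 1 to 3, CS 1 to 3 and air 1 to 3 by the replicate numbers in the labels. The labels do not state that the arrays of a group came from separate mice, so the p-values measure the spread between these arrays, which may be technical.

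A motile cilium is a bundle of doublet microtubules, the axoneme, whose outer and inner dynein arms slide neighbouring doublets past each other, while radial spokes, the central pair and the nexin links turn sliding into bending. Intraflagellar transport carries the parts along the growing cilium, and unlike the axonemal motors it also serves the non-motile primary cilia of many other cell types. In the lung motile cilia belong to the multiciliated cells of the bronchi and bronchioles, which switch on this set of genes under Gmnc, Mcidas and Foxj1 and clear mucus and inhaled particles by their beat. Whole-lung RNA mixes these cells with all others, so fewer multiciliated cells and less RNA per multiciliated cell cannot be told apart.

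Levels are log2 signals relative to the 75th percentile of the same array, so that 0 is the 75th percentile of all probes, and they are not compared between genes, since each probe has its own brightness. A gene was called at an adjusted p under 0.05 in limma's test over 37258 probes (Benjamini-Hochberg). The 75th percentile of the signal ran from 973.3 to 1098 units on the 9 arrays, between 64.3% and 68.8% of probes were well above background, and 0 spots were saturated; the number of arrays limits the precision. One slide held the IQOS arrays alone, so effects of the slide and of IQOS cannot be told apart. The other slide held the CS arrays, all in array row 2, and the air arrays, of which air 3 shared that row while the others lay in row 1.

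Most ciliary genes did not pass the test in any comparison. With IQOS against air 1 gene was higher, Rsph14, and 0 were lower by limma, where 1.99% of all tested genes were higher and 0.886% lower. With CS against air 4 rose (Rsph14, Dnah17, Cfap43 and Cfap69) and 2 fell (Gmnc and Dnah8), where 5.6% of all tested genes rose and 6.12% fell. With IQOS against CS 4 were higher (Gmnc, Mcidas, Cfap300 and Dnah1) and 3 lower (Dnah17, Cfap69 and Cfap206), against 4.94% and 5.18% of all tested genes. The called share was thus 1.45%, 8.7% and 10.1% of the 69 ciliary genes, against 2.87%, 11.7% and 10.1% of all genes, close to or below the background in each comparison. At an unadjusted p under 0.05, 7 ciliary genes were higher and 1 lower with IQOS against air, where 9.85% of all tested genes were higher and 10.5% lower. The counts were 10 and 4 for CS against air (13.9% and 17.3% of all tested genes) and 5 and 7 for IQOS against CS (15.6% and 13.6%). Single arrays decided several of these counts: with 1 array left out in turn, CS minus air gave 1 to 7 higher and 0 to 2 lower, IQOS minus CS 1 to 4 higher and 0 to 2 lower, and IQOS minus air 0 to 1 higher. With array row as a further term in the fit, Dnah17 in CS minus air was the only gene still called. The share of all tested genes called in these further fits was not computed, so their counts have no background beside them.

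The median change of the 69 genes was 0.05 for IQOS minus air, 0.02 for CS minus air and 0.03 for IQOS minus CS on the log2 scale, beside -0.012, -0.016 and 0.017 for all tested genes. The standard error of a ciliary gene's change had a median of 0.11 and ran from 0.06 to 0.48. The 95% interval of the change lay inside 1.5-fold either way for 59 of 69 genes with IQOS against air, 52 with CS against air and 55 with IQOS against CS. The comparisons with air share the air arrays, and both CS comparisons share the CS arrays, so a gene that stands out on the shared arrays moves in both.

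**Figure D1:**
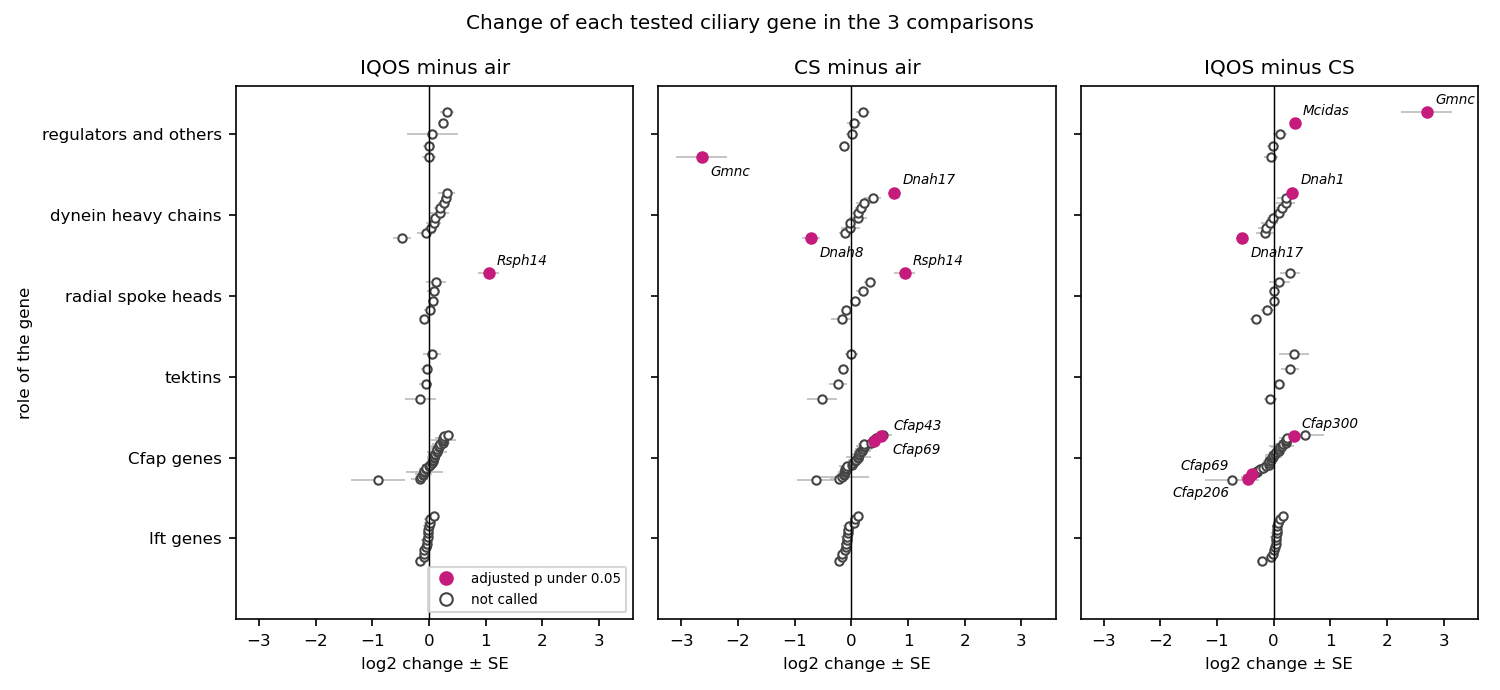
Log2 change (horizontal axis) with its standard error for each of the 69 tested ciliary genes, grouped by role, in IQOS minus air, CS minus air and IQOS minus CS. Filled points passed an adjusted p of 0.05 in limma's test; most genes lie close to 0, the 14 Ift genes most closely, and Gmnc stands farthest out, where its fitted change rests on signals that were not well above background on the CS arrays.

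Without overlap between the groups' arrays, 14 ciliary genes (20.3%) were higher with CS than with air and 8 (11.6%) lower, against 17.2% and 21% of all tested genes. For IQOS against air 5 (7.25%) were higher and 2 (2.9%) lower, against 13% and 15.1% of all tested genes. For IQOS against CS 6 (8.7%) were higher and 11 (15.9%) lower, against 18.5% and 16.8%. Of the 4 genes left untested, Tekt3, Rsph6a and Cfap97d1 were not well above background on any array, and Cfap61 was so on 1 IQOS array and 1 CS array. Of the 73 genes, 33 had several probes, and 27 had several tested probes. No gene had more than 1 called probe, so calls in opposite directions could not arise. No call was repeated by another probe of the same gene.

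The promoters show which of these genes carry sequence that ciliary transcription factors are known to bind: RFX factors bind X-box motifs, and Foxj1 binds forkhead motifs. RefSeq promoters (build GRCm38.p6) were at hand for 59 of the 73 genes, and the 250 bases before each annotated start were searched on both strands. The short X-box site GTTGCC lay before 18 of the 59 genes (30.5%) and before 11.8% of 27025 genes in the table. The longer X-box-like form, which is GTNNCC and, after 3 free bases, GNNAC and can contain the short site, lay before 13 of the 59 (22%) and before 4.39% of all genes. The forkhead form GTAAACA lay before 4 of the 59 (6.78%) and before 3.54% of all genes. By role the X-box-like form lay before 7 of 25 Cfap genes, 2 of 10 dynein heavy chains, 2 of 11 Ift genes, 2 of 5 tektins and 0 of 5 radial spoke genes. The following matches to the X-box-like form, each in full and on the strand of its gene, come from the called genes Dnah17 and Cfap206 and, for comparison, from Ift57 and Tekt1, which were not called in any comparison; they lie at chr11:118129365-118129378, chr4:34730216-34730229, chr16:49699207-49699220 and chr11:72361884-72361897.
Dnah17: GTCACCAGCGCAAC
Cfap206: GTTTCCACGGTTAC
Ift57: GTTGCCGTGGTGAC
Tekt1: GTTGCCATAGAGAC
A match is a run of letters, not a measured binding site.

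The 250 bases before the start of the 3 genes with the largest called changes follow, each on the minus strand of its chromosome and written 5′ to 3′ along the gene: Gmnc (chr16:26991653-26991902), Rsph14 (chr10:75032587-75032836) and Dnah17 (chr11:118129220-118129469). Gmnc and Rsph14 each have another annotated start, whose windows (chr16:26968246-26968495 and chr10:75032554-75032803) are not shown. Capitals mark the forkhead form, which in Dnah17 lies on the opposite strand, and the X-box-like form.
Gmnc: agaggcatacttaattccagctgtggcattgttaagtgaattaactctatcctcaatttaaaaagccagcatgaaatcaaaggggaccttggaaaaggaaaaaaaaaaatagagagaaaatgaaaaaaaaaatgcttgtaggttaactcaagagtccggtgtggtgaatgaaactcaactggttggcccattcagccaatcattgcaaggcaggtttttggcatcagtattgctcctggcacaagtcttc
Rsph14: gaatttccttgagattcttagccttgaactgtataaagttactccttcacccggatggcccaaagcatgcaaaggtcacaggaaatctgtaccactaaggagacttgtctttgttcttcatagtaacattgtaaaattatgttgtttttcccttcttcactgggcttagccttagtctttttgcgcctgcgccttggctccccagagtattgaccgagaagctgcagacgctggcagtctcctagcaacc
Dnah17: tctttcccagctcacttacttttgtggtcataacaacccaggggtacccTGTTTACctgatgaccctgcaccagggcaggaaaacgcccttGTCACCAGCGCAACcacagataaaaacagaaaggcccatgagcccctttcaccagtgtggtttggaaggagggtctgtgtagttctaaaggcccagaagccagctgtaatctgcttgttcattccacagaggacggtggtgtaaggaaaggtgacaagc
Dnah17 holds both forms within 201 bases of its start. The windows of Gmnc and Rsph14, including those not shown, hold neither form nor the short site. Among the other called genes, Mcidas and Cfap300 had the short site, Cfap206 the X-box-like form and Cfap43 the forkhead form.

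The genes that start multiciliated cell formation differed among themselves. Gmnc encodes a geminin-family protein that acts at the top of the programme, upstream of Mcidas and Foxj1. Its level was -4.46, -3.92 and -3.55 on the IQOS arrays, -5.68, -7.12 and -7.25 on the CS arrays and -4.56, -3.64 and -3.92 on the air arrays. All CS arrays lay below all others, and the probe was not well above background on any CS array, so on these signals the difference has only a lower bound. The bound sets the mean of the brighter group against the higher of the dim probe's own signal and the lowest signal well above background, array by array. By this bound Gmnc was at least 2.27-fold lower with CS than with air and at least 2.37-fold higher with IQOS than with CS. The fitted log2 changes were -2.64 (adjusted p = 0.0151 by limma) and 2.70 (adjusted p = 0.0133). Those p-values belong to the fitted changes, which use the CS signals near background, and do not test the bounds. The probe passed the filter on dim probes only through the IQOS and air groups, where it was brighter. The size depends on the background correction: with normexp, which adds an offset of 50 units to every signal, the log2 changes of Gmnc were -0.64 (adjusted p = 0.0232) and 0.75 (adjusted p = 0.0111), both smaller than these bounds. IQOS and air overlapped, with a difference of 0.06 ± 0.45 (SE). The call against air was lost without CS 2 (adjusted p = 0.0545) and in a fit with array row (adjusted p = 0.122), and the call between IQOS and CS was kept in all 9 fits that left out 1 array but not with array row (adjusted p = 0.284).

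Mcidas, or multicilin, binds E2F factors and drives centriole amplification. It measured 5.51, 5.51 and 5.35 with IQOS, 5.21, 5.07 and 4.97 with CS and 5.20, 5.20 and 5.23 with air. The IQOS arrays were the highest, without overlap with either other group. The difference from CS was 0.37 ± 0.08 (SE; adjusted p = 0.027), whereas 0.24 ± 0.08 from air missed the threshold (adjusted p = 0.13), and CS and air differed by -0.13 ± 0.08 (adjusted p = 0.303). The call rests on 1 probe with a mean level of 5.25, since the other Mcidas probe, at -5.13, was too dim to test. Whether the bright probe reads Mcidas RNA alone was not tested. The Mcidas call was kept in 4 of 9 fits that left out 1 array and lost without IQOS 1, IQOS 2, CS 2, CS 3 or air 1 (adjusted p up to 0.0837). It was also lost with array row (adjusted p = 0.372), with only the 6 arrays compared (adjusted p = 0.0744) and without a filter on dim probes (adjusted p = 0.0621).

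Foxj1, the transcription factor that switches on axonemal genes, measured 2.53, 2.97 and 2.94 with IQOS, 2.72, 2.66 and 2.73 with CS and 2.41, 2.43 and 2.64 with air. All CS arrays lay above all air arrays by a narrow margin, and the IQOS arrays spanned both. The change was 0.32 ± 0.12 for IQOS minus air (adjusted p = 0.187) and 0.21 ± 0.12 for CS minus air (adjusted p = 0.306), with 95% intervals from 0.03 to 0.61 and from -0.08 to 0.50. Foxj1 therefore passed the test in neither comparison.

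Tppp3, a microtubule-binding protein used as a marker of multiciliated cells, measured 6.42, 6.69 and 6.47 with IQOS, 6.64, 6.62 and 6.35 with CS and 6.43, 6.53 and 6.62 with air. Its groups overlapped throughout, and its changes were 0.00, 0.01 and -0.01 (SE 0.11 each) for IQOS minus air, CS minus air and IQOS minus CS. The dimmer Tppp3 probe gave -0.22, -0.03 and -0.20 (SE 0.12 each, adjusted p = 0.334, 0.915 and 0.335). Ccdc39, which sets the axonemal repeat together with Ccdc40, measured -0.87, -0.44 and -0.51 with IQOS, -0.48, -0.50 and -0.70 with CS and -0.67, -0.60 and -0.55 with air. The air arrays of Ccdc39 lay within the range of the IQOS arrays, and its changes were within 0.05 of 0 (SE 0.12).

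**Figure D2:**
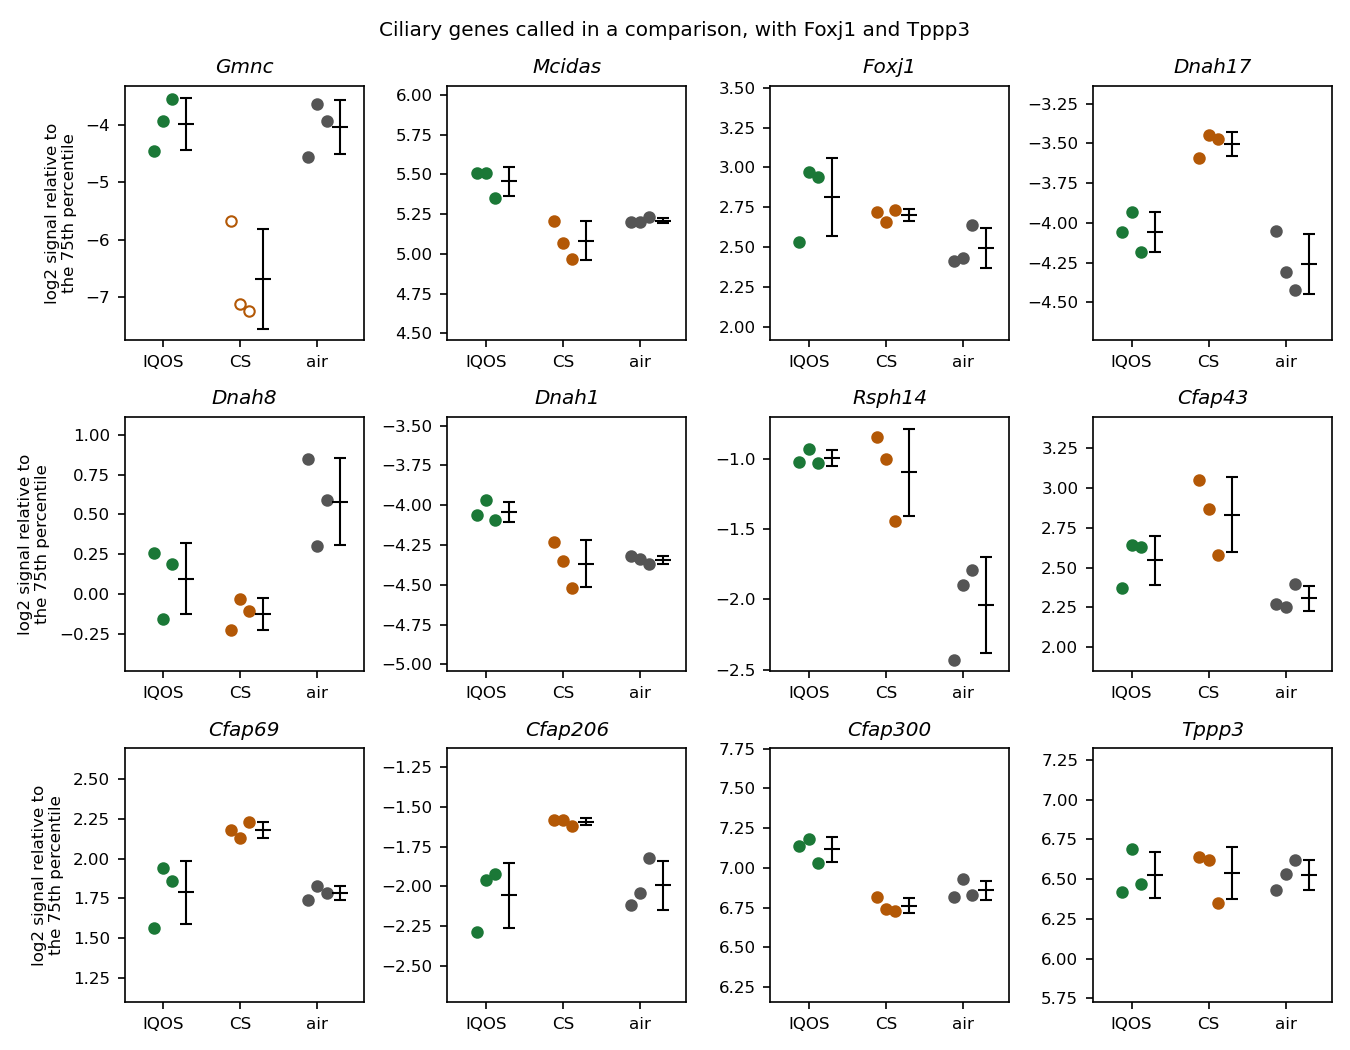
Log2 signal relative to the 75th percentile on each array (points) with the group mean and SD (bars) for the 10 ciliary genes called in a comparison, with Foxj1 and Tppp3; open points were not well above background, and vertical scales differ between panels. Gmnc is lowest on the 3 CS arrays, Rsph14 is lowest on the 3 air arrays, and Dnah17 is highest on the 3 CS arrays.

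Dynein heavy chains carry the motor domains of the arms. Of the 10, Dnah17 rose and Dnah8 fell with CS against air, Dnah1 was higher and Dnah17 lower with IQOS against CS, and 0 were called with IQOS against air (3 at an unadjusted p under 0.05, 2 of them higher). Dnah17, an outer arm chain best known from the sperm tail, measured -4.06, -3.93 and -4.18 with IQOS, -3.59, -3.45 and -3.47 with CS and -4.05, -4.31 and -4.42 with air. Every CS array was above every other array, while IQOS and air overlapped. CS exceeded air by 0.76 ± 0.11 (SE), or 1.69-fold (adjusted p = 0.00929), and IQOS was below CS by -0.56 ± 0.11 (adjusted p = 0.0218). The CS against air call was kept in all 9 fits that left out 1 array and in all 12 other settings (adjusted p up to 0.0415), the only call among the ciliary genes to do so. Of these settings, the looser threshold of 0.1 could not lose a call. Averaging the probes of a gene left the change at 0.76, since Dnah17 has 1 probe. Its size was not as stable: with normexp correction the change was 0.39 for CS minus air (adjusted p = 0.0158) and -0.29 for IQOS minus CS (adjusted p = 0.0361). The IQOS against CS call was lost with array row (adjusted p = 0.17) and without IQOS 1, IQOS 3, CS 2 or CS 3 (adjusted p up to 0.0736). Dnah17 overlaps Pgs1, a phospholipid synthesis gene, in the annotation; Pgs1 changed by 0.31 in CS minus air (adjusted p = 0.0541) and by -0.36 in IQOS minus CS (adjusted p = 0.0361), and whether the Dnah17 probe reads Pgs1 RNA was not tested.

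Dnah8, also an outer arm chain of the sperm tail, went the other way. It measured 0.26, -0.16 and 0.19 with IQOS, -0.23, -0.03 and -0.11 with CS and 0.85, 0.30 and 0.59 with air. The air arrays were the highest, and IQOS and CS overlapped. CS minus air was -0.71 ± 0.16 (SE; adjusted p = 0.033) and IQOS minus air -0.48 ± 0.16 (adjusted p = 0.132). The CS call was kept in 4 of 9 fits that left out 1 array, lost without any 1 CS array, air 1 or air 3 (adjusted p up to 0.0997), and lost with array row (adjusted p = 0.212).

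Dnah1, an inner arm chain, measured -4.06, -3.97 and -4.09 with IQOS, -4.23, -4.35 and -4.52 with CS and -4.32, -4.34 and -4.37 with air. The IQOS arrays were the highest, by 0.32 ± 0.08 over CS (SE; adjusted p = 0.0455). This call was the least stable of the dyneins: it was kept in 1 of 9 fits that left out 1 array, lost without any array other than CS 1 (adjusted p up to 0.127), and the difference was 0.02 (adjusted p = 0.855) with normexp background correction. The chains best known from human airway disease showed no call: Dnah5 changed by 0.31 ± 0.15 in IQOS minus air and 0.38 ± 0.15 in CS minus air, Dnah9 by 0.26 ± 0.10 and 0.17 ± 0.10, and Dnah11 by 0.11 ± 0.10 and 0.12 ± 0.10, none past the threshold. The remaining inner arm chains were also uncalled: Dnah2 changed by 0.08 ± 0.14 in IQOS minus air and 0.22 ± 0.14 in CS minus air, Dnah7a by -0.05 ± 0.16 and 0.12 ± 0.16, and Dnah10 by 0.19 ± 0.17 and -0.02 ± 0.17. Dnah6, an inner arm chain with the brightest probe of the group, measured 3.31, 3.58 and 3.54 with IQOS, 3.45, 3.35 and 3.20 with CS and 3.34, 3.48 and 3.51 with air, and the groups overlapped.

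Radial spokes pass signals from the central pair to the dynein arms. Of 6 tested spoke genes Rsph14 alone was called, higher with both aerosols. It measured -1.02, -0.93 and -1.03 with IQOS, -0.84, -1.0 and -1.44 with CS and -2.43, -1.90 and -1.79 with air. All 3 air arrays lay below all 6 exposed arrays, and IQOS and CS overlapped. Rsph14 rose by 1.05 ± 0.19 (SE), or 2.06-fold, with IQOS (adjusted p = 0.0329) and by 0.94 ± 0.19, or 1.92-fold, with CS (adjusted p = 0.026), and the exposures differed by 0.10 ± 0.19 (adjusted p = 0.776). The IQOS call was kept only without CS 1 or CS 3, being lost without each other array (adjusted p up to 0.102), and the CS call was lost without CS 1, CS 2, air 1 or air 2 (adjusted p up to 0.0849). With array row as a covariate the changes were 1.17 (adjusted p = 0.0602) and 0.69 (adjusted p = 0.253). Both calls were also lost with only the 6 arrays compared (adjusted p = 0.0558 and 0.0603) and without a filter on dim probes (adjusted p = 0.0752 and 0.0565). The replicate block gave adjusted p = 0.0754 and 0.0506. Rsph14 lies over Gnaz, which encodes a G protein alpha subunit and did not move with it: Gnaz changed by -0.16 (adjusted p = 0.64) and -0.04 (adjusted p = 0.905).

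The spoke head genes known from ciliary disease, Rsph1, Rsph4a and Rsph9, were not called. Rsph1 changed by 0.08 ± 0.12 in IQOS minus air and 0.20 ± 0.12 in CS minus air, and Rsph4a by 0.12 ± 0.18 and -0.17 ± 0.18. Rsph9 measured 2.38, 2.66 and 2.62 with IQOS, 2.96, 2.84 and 2.79 with CS and 2.44, 2.49 and 2.70 with air. The CS arrays were the highest, by 0.33 ± 0.10 over air (SE; adjusted p = 0.0791) and with -0.32 ± 0.10 for IQOS minus CS (adjusted p = 0.0896). The other Rsph9 probe gave 0.36 ± 0.09 for CS minus air, just past the threshold (adjusted p = 0.0465). Rsph3b, a spoke stalk gene and the brightest probe here, measured 3.00, 3.23 and 3.13 with IQOS, 3.12, 3.14 and 3.07 with CS and 3.16, 3.28 and 3.17 with air. Its CS arrays lay just below its air arrays, a difference of -0.09 ± 0.07 (adjusted p = 0.43).

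Tektins are filaments inside the doublet microtubules. None of the 4 tested was called in any comparison by limma, and 0 of 4 reached an unadjusted p under 0.05. The median change was -0.05 for IQOS minus air, -0.19 for CS minus air and 0.20 for IQOS minus CS. Tekt1 measured 1.93, 2.28 and 2.19 with IQOS, 2.31, 2.22 and 2.05 with CS and 2.15, 2.12 and 2.30 with air. Tekt4 measured 1.28, 1.62 and 1.39 with IQOS, 1.34, 1.22 and 0.85 with CS and 1.37, 1.18 and 1.59 with air. Groups overlapped for both, with CS 3 the lowest array of Tekt4. Tekt5 measured -3.04, -2.98 and -3.80 with IQOS, -3.11, -3.87 and -3.93 with CS and -3.18, -3.15 and -3.02 with air. CS minus air was -0.52 ± 0.27 (SE; adjusted p = 0.247) for Tekt5, whose values were widely spread within both exposed groups.

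The Cfap genes, named only for being cilia and flagella associated, form the largest set. Of 30 tested, 0 were called with IQOS against air by limma (2 at an unadjusted p under 0.05, both higher), 2 rose with CS against air, and 1 was higher and 2 were lower with IQOS against CS. Their median change was 0.08 for IQOS minus air, 0.12 for CS minus air and -0.02 for IQOS minus CS. Cfap43, which with Cfap44 tethers an inner arm dynein in ciliates and algae, measured 2.37, 2.64 and 2.63 with IQOS, 3.05, 2.87 and 2.58 with CS and 2.27, 2.25 and 2.40 with air. CS lay above air without overlap, by 0.52 ± 0.13 (SE; adjusted p = 0.0415), and IQOS lay between, overlapping both. Its partner Cfap44 was also without overlap, at 0.34 ± 0.11 (adjusted p = 0.0861), but its 3 dimmer probes gave 0.00, 0.20 and 0.00 (adjusted p = 0.995, 0.432 and 0.994). The Cfap43 call was kept only without CS 3 or IQOS 1 (adjusted p up to 0.128), and the other Cfap43 probe changed by 0.30 ± 0.13 (adjusted p = 0.168).

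Cfap69, needed for the sperm tail and present in olfactory cilia in mice, measured 1.56, 1.94 and 1.86 with IQOS, 2.18, 2.13 and 2.23 with CS and 1.74, 1.83 and 1.78 with air. The CS arrays were the highest without overlap. CS minus air was 0.40 ± 0.10 (SE; adjusted p = 0.043) and IQOS minus CS -0.39 ± 0.10 (adjusted p = 0.0446). The first call was kept only without IQOS 1 or IQOS 2 (adjusted p up to 0.134) and the second in 0 of 9 such fits (adjusted p up to 0.117), and the other Cfap69 probe gave 0.14 ± 0.09 (adjusted p = 0.314) and -0.25 ± 0.09 (adjusted p = 0.107). Cfap206, which helps to anchor a radial spoke in ciliates, measured -2.29, -1.96 and -1.92 with IQOS, -1.58, -1.58 and -1.62 with CS and -2.12, -2.04 and -1.82 with air. Again the CS arrays were the highest: IQOS minus CS was -0.46 ± 0.11 (adjusted p = 0.0437), and CS minus air was 0.40 ± 0.11 (adjusted p = 0.0622). The Cfap206 call was kept only without air 3 (adjusted p up to 0.117), and with array row the difference was -0.21 (adjusted p = 0.709).

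Cfap300, required in humans for dynein arm assembly, differed in the opposite direction. It measured 7.14, 7.18 and 7.03 with IQOS, 6.82, 6.74 and 6.73 with CS and 6.82, 6.93 and 6.83 with air. The IQOS arrays were the highest without overlap, by 0.35 ± 0.06 over CS (SE; adjusted p = 0.0178) and by 0.26 ± 0.06 over air (adjusted p = 0.0704). The other Cfap300 probe gave 0.08 ± 0.15 for IQOS minus CS (adjusted p = 0.783), so the probes differed. Their mean levels were far apart too, at 6.91 for the called probe and -2.50 for the other. Whether the called probe reads Cfap300 RNA alone was not tested. The call was kept in 5 of 9 fits that left out 1 array and lost with array row (adjusted p = 0.403) and without IQOS 1, IQOS 2, CS 2 or CS 3 (adjusted p up to 0.0645).

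Among the other Cfap genes, CS exceeded air without overlap and without a call for Cfap126 (0.43 ± 0.11, adjusted p = 0.053), a protein of the inner face of the microtubule wall, and for Cfap299 (0.55 ± 0.17, adjusted p = 0.0709). The dimmer Cfap126 probe did pass (0.49 ± 0.11, adjusted p = 0.0348). Dimmer probes also passed in the other direction for Cfap97 (-0.49 ± 0.10, adjusted p = 0.0241), where the brighter probe changed by -0.11 ± 0.06. Cfap53 had the widest spread of all, at 0.63, 1.1 and 1.37 with IQOS, 1.64, 1.81 and 1.85 with CS and 1.31, 1.29 and 3.20 with air. The value of air 3 alone set its air mean, and its changes had an SE of 0.48. Of further proteins of the inner microtubule wall, Cfap20 changed by 0.07 ± 0.08 (SE) in IQOS minus air and -0.13 ± 0.08 in CS minus air, Cfap45 by -0.16 ± 0.15 and 0.23 ± 0.15, Cfap52 by 0.01 ± 0.14 and 0.14 ± 0.14, and Cfap161 by 0.17 ± 0.14 and -0.07 ± 0.14. Of the central pair apparatus, Cfap46 changed by 0.08 ± 0.11 and 0.12 ± 0.11, Cfap54 by 0.08 ± 0.12 and -0.13 ± 0.12, Cfap74 by 0.07 ± 0.11 and 0.15 ± 0.11, and Cfap221 by 0.15 ± 0.11 and 0.23 ± 0.11. None of these 8 genes passed the test. The largest uncalled change with IQOS against air outside Cfap53 was that of Cfap65, at 0.33 ± 0.12 (adjusted p = 0.157). Cfap20dc was well above background on all IQOS and air arrays but on only 1 of the CS arrays, and was not called.

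The Ift genes, the cargo trains of intraflagellar transport, varied least. Of 14 tested, 0 were called in each comparison by limma, and the count at an unadjusted p under 0.05 was 0 for IQOS minus air, 2 for CS minus air (both lower) and 0 for IQOS minus CS. Changes ran from -0.16 to 0.08 for IQOS minus air, from -0.21 to 0.11 for CS minus air and from -0.20 to 0.17 for IQOS minus CS. The 95% intervals of all 14 lay inside 1.5-fold in all 3 comparisons. The sign was mostly negative against air, for 11 of 14 genes with either aerosol, with medians of -0.03 and -0.08, and the air arrays are shared between these comparisons. Ift27, a small GTPase of the IFT-B complex, measured 3.41, 3.45 and 3.42 with IQOS, 3.45, 3.36 and 3.26 with CS and 3.47, 3.50 and 3.59 with air. All air arrays were the highest by a narrow margin, with CS minus air at -0.16 ± 0.07 (SE; adjusted p = 0.15). Ift80, also of IFT-B, measured 0.67, 0.83 and 0.83 with IQOS, 0.65, 0.67 and 0.50 with CS and 0.86, 0.72 and 0.87 with air. Its CS arrays lay below its air arrays, with CS minus air at -0.21 ± 0.08 (adjusted p = 0.127). The dimmer probe of Ift52, another IFT-B subunit, was called lower (-0.39 ± 0.09, adjusted p = 0.0352), beside -0.16 ± 0.08 for the brighter one. The IFT-A subunits Ift43, Ift122 and Ift140 changed by -0.06, -0.11 and 0.06 in CS minus air.

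**Figure D3:**
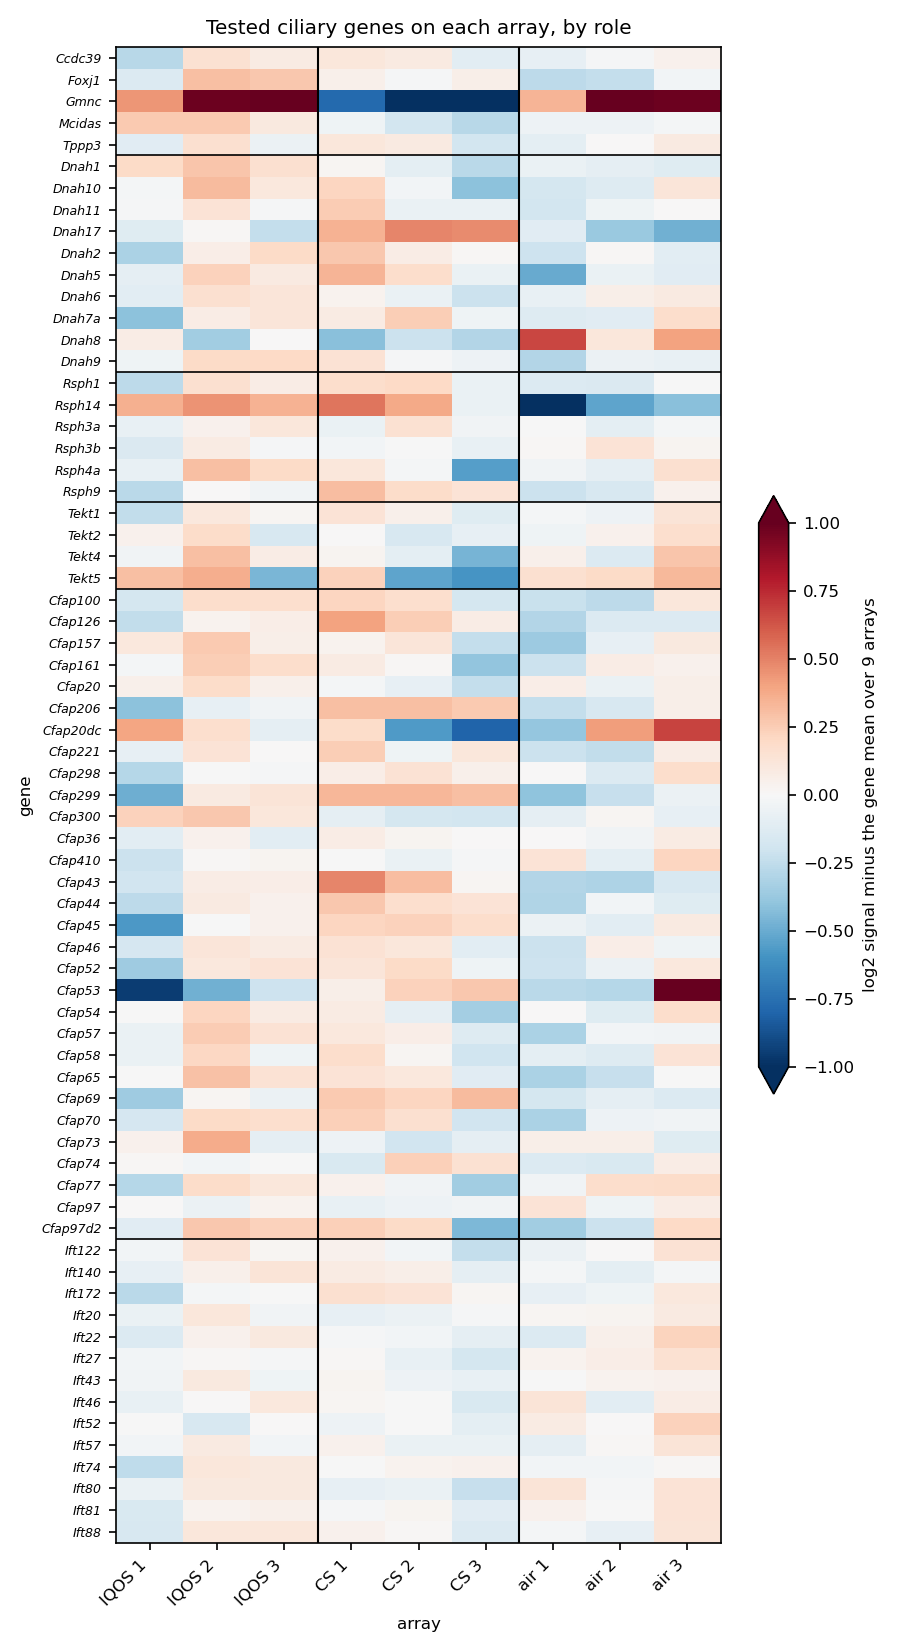
Log2 signal of each of the 69 tested ciliary genes (rows, by role) on each array (columns), minus the mean of that gene over the 9 arrays; colours are capped at 1 either way. The Ift rows at the bottom are the palest, and columns IQOS 1, CS 3, air 1 and air 2 are on the blue side in most rows.

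Inside each group, most ciliary genes were lowest on the same 1 or 2 arrays. Within the IQOS group, IQOS 1 was the lowest array for 52 of the 69 genes (75.4%), against 38.9% of all tested genes. Within the CS group CS 3 was the lowest for 55 (79.7%), against 39.2% of all tested genes. Within air the low values were split, with air 1 the lowest for 40 (58%) and air 2 for 26 (37.7%), against 26.5% and 35.3% of all tested genes. The median deviation of the 69 genes from their own means was -0.08, 0.12 and 0.07 on the IQOS arrays, 0.08, 0.02 and -0.09 on the CS arrays and -0.08, -0.06 and 0.08 on the air arrays. The ranges of the 3 groups overlapped. The multiciliated marker list had 14 genes, of which 7 are among the genes described here; the other 7 deviated by -0.15, 0.19 and 0.13 with IQOS, 0.12, 0.09 and -0.14 with CS and -0.08, -0.04 and 0.04 with air, with the same arrays low. Of all 14 markers 0, 1 and 0 were called in IQOS minus air, CS minus air and IQOS minus CS, the 1 being Tmem212 (0.48 ± 0.11, adjusted p = 0.0357). Their summed linear signal ran from 150.3 to 185.3 with IQOS, from 152.3 to 184.1 with CS and from 149.6 to 172.1 with air, in units of the 75th percentile. Such a sum is weighted towards the brightest probes of its list, here Tppp3. The same holds for the sums given below for other cell types.

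Some markers of other cell types passed the test between groups. The 10 alveolar macrophage markers summed to 163.7 to 191.4 with IQOS, 283.9 to 371.3 with CS and 144.8 to 168.5 with air, and 5 of 10 rose with CS against air (Chil3, Itgax, Marco, Mrc1 and Plet1). The list went both ways, since 4 of the 10 had negative changes, of which Fabp4 was the farthest from 0 at -0.92 ± 0.36 (SE; adjusted p = 0.137). The 14 club cell markers, of the secretory cells that neighbour multiciliated cells, summed to 1404 to 1680 with IQOS, 1577 to 1883 with CS and 1211 to 1407 with air, with 3 rising with CS (Cyp2a5, Hp and Retnla). The 9 neutrophil markers summed to 173.2 to 428.3 with IQOS, 329.6 to 729.7 with CS and 182.4 to 228.7 with air; in CS minus air the median change was 1.98 and 8 of 9 were positive, but only Cd177 passed the test. The 8 B cell markers summed to 10.3 to 22.15 with IQOS, 5.632 to 10.93 with CS and 13.82 to 28.54 with air, with a median of -1.27 in CS minus air, all 8 negative and 3 called (Blk, Cr2 and Ms4a1). The alveolar type II, basal and goblet cell markers gave 0 calls by limma in any comparison, with 0 to 3 genes of each at an unadjusted p under 0.05. Of 8 testis germ cell markers 3 were bright enough to test, and Prm1, Tnp2, Acrv1, Ddx4 and Odf1 were not. The part of cell mixture in the called changes of Dnah17, Gmnc and the others was not tested.

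**Figure D4:**
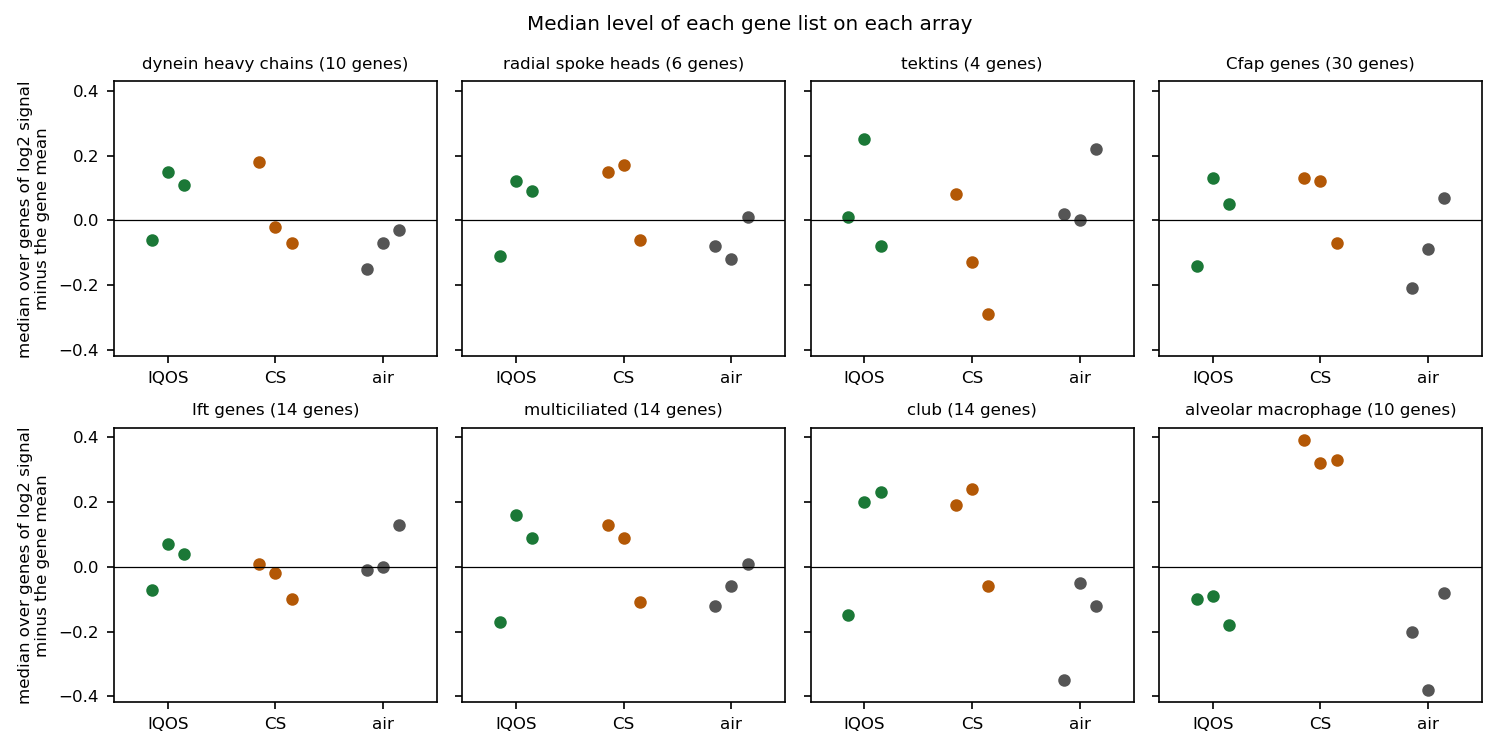
Median over the genes of a list of the log2 signal minus the gene's mean over 9 arrays (vertical axis), for each array (points, replicates 1 to 3 from left to right in each group). Ciliary roles and multiciliated markers overlap between IQOS, CS and air, with IQOS 1, CS 3 and air 1 below 0 in most panels. Alveolar macrophage markers lie above 0 on the 3 CS arrays and below 0 on the other 6.

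Other genes of the cilium came from lists that hold none of the 73. The checks with 1 array left out and with other settings were made for the 73 genes only. The stability of the calls below, and of those of the cell type markers outside the 73, was therefore not tested. The limit set by the separate slide of the IQOS arrays applies to them as well. Of 101 such genes 93 were tested, and in IQOS minus air 3 were higher and 0 lower, in CS minus air 3 and 3, and in IQOS minus CS 6 and 3, or 3.23%, 6.45% and 9.68% in all, against 2.87%, 11.7% and 10.1% of all tested genes. Of 18 tested regulators of multiciliation and centriole amplification, 1, 3 and 4 were called (5.56%, 16.7% and 22.2%). Among them Ccno, a cyclin-like protein whose gene adjoins Mcidas, measured -1.11, -1.22 and -0.64 with IQOS, 0.70, 0.24 and -0.09 with CS and -1.36, -1.38 and -1.45 with air. The CS arrays were the highest without overlap, by 1.68 ± 0.21 over air (SE; adjusted p = 0.00655), with -1.28 ± 0.21 for IQOS minus CS (adjusted p = 0.0134). Mcidas on the same chromosome was not called against air and was lower with CS than with IQOS. Gmnn, or geminin, which restrains DNA replication and binds Mcidas protein, rose with CS by 1.20 ± 0.23 (adjusted p = 0.0207) and was lower with IQOS than with CS (-1.29, adjusted p = 0.0165). Myb, which acts early in multiciliated cells and in blood cell precursors, fell by 0.65 with CS (adjusted p = 0.0218) and was higher with IQOS than with CS (0.53, adjusted p = 0.0406). E2f4, the partner of Mcidas, was higher with IQOS than with air (0.65 ± 0.10, adjusted p = 0.0194) and than with CS (0.68, adjusted p = 0.00889).

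Of 9 dynein intermediate and light chains, Dnal1, an outer arm light chain, was called in every comparison. It measured -1.65, -1.63 and -1.67 with IQOS, -2.43, -2.43 and -2.61 with CS and -1.90, -2.02 and -2.03 with air. The groups were fully separate, with IQOS highest and CS lowest: IQOS minus air was 0.33 ± 0.07 (SE; adjusted p = 0.0429), CS minus air -0.50 ± 0.07 (adjusted p = 0.00812) and IQOS minus CS 0.84 ± 0.07 (adjusted p = 0.00175). Of 10 genes of the nexin link and ruler, Iqcd was higher with IQOS than with air (0.51, adjusted p = 0.0236) and than with CS (0.56, adjusted p = 0.00936), and Drc7 rose with CS (0.41, adjusted p = 0.0369). Of 13 dynein arm assembly factors Daw1 was higher with IQOS than with CS (0.41, adjusted p = 0.0444). Of 19 further transport genes, Ttc21b, an IFT-A subunit, measured 0.68, 0.81 and 0.80 with IQOS, 0.42, 0.32 and 0.33 with CS and 1.06, 0.95 and 1.11 with air. It fell with CS by 0.68 ± 0.07 (SE; adjusted p = 0.00388), was higher with IQOS than with CS by 0.40 ± 0.07 (adjusted p = 0.0144), and its 3 groups did not overlap. Dync2h1, the motor of return transport, was lower with IQOS than with CS (-0.33, adjusted p = 0.0483). None of 13 genes of the BBSome list, an adaptor of ciliary membrane cargo, and none of 11 central pair genes was called by limma in any comparison, with between 0 and 3 genes of each list at an unadjusted p under 0.05.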

How the data were processed

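Whole-lung RNA was measured on one-colour arrays, with 3 arrays for each of IQOS, CS and air. Per the file headers, the authors' scanner software (Agilent Feature Extraction, version 10.7.1.1) gave each spot an intensity with background and spatial trend removed and no scaling between arrays. The deposited series matrix holds linear ratios of these signals to each array's 75th percentile, found from its values, with column medians of 0.12, 0.12 and 0.12 (IQOS), 0.12, 0.118 and 0.117 (CS) and 0.114, 0.116 and 0.121 (air), uncentred, brighter being larger. It served as an alternative.

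Signals were put on a log2 scale and each array's 75th percentile over 56605 non-control probes was subtracted. A probe was tested if it had values on at least 2 arrays of each group and was well above background on every array of at least 1 group. The fit used limma 3.58.1 in R 4.3.3 on all 9 arrays. A gene was its tested probe with the highest mean signal, named through RefSeq accessions (32994 probes, 58.3%). Genes described array by array were those called, the 5 listed singly, and, per role, those with the 2 smallest p and the brightest probe. The members and lists were chosen with earlier results of these data known. The fit was tested on simulated data. Replicate numbers were checked as pairs: correlations of same-numbered arrays ran from -0.08 to 0.2, so they were not treated as pairs. Mean signals were not used here; the normexp alternative took median signals. RefSeq genes Cfap47, Cfap99, Dnah3, Dnah7b, Dnah7c, Dnah12 and Dnah14 had no matched probe.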

Additional observations from a re-analysis of the deposited data

How the results depend on the processing

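No direction of a called gene reversed under any alternative. The share of all tested genes called was not computed for the alternatives. Their counts therefore describe the ciliary genes without a background. IQOS minus air called 1 ciliary gene higher; the count was 2 with normexp correction and with intensity trend and robust eBayes, 3 at an adjusted p under 0.1, and 0 without a filter, with the replicate block, with array row, and with only the 6 arrays compared. CS minus air called 4 higher and 2 lower; it called 1 and 1 without a filter, 1 and 0 with array row, 1 higher with the replicate block, 1 lower with the filter on all 9 arrays, and 9 higher at an adjusted p under 0.1. IQOS minus CS called 4 higher and 3 lower; it called 2 and 1 without a filter, 0 and 0 with array row, and 1 and 1 with only the 6 arrays compared. The median change moved with array row to -0.08 for CS minus air and 0.16 for IQOS minus CS, where the row term rests on the air arrays alone, with air 3 the single one in row 2. Leaving out each of the 9 arrays in turn gave 0 to 1 higher and 0 lower for IQOS minus air, 1 to 7 higher and 0 to 2 lower for CS minus air, and 1 to 4 higher and 0 to 2 lower for IQOS minus CS, with medians of -0.02 to 0.12, -0.04 to 0.09 and -0.02 to 0.08. By array, CS minus air gave 7 higher without IQOS 1, 2 without IQOS 3 or air 3, and 1 without CS 1, CS 2, air 1 or air 2, and 0 lower without CS 2 and 1 without CS 1, CS 3, air 1 or air 3. IQOS minus CS gave 1 higher without IQOS 1, IQOS 2, CS 2 or CS 3 and 2 without air 1, and 0 lower without IQOS 1, IQOS 3, CS 2 or CS 3 and 1 without IQOS 2, CS 1, air 1 or air 2. IQOS minus air gave 0 higher without CS 2, any IQOS array or any air array. The replicate numbers did not pair the arrays, so the replicate block is given as a value only. Quantile normalization and the series matrix values stayed within 1 call of each count. Slide could not be fitted as a block in the IQOS comparisons, where effects of slide and aerosol cannot be told apart. CS minus air lies within 1 slide, where the 6 arrays alone gave 3 higher and 2 lower. These 3 were not all among the 4 of the main fit. Dnah17 and Cfap69 were kept, and Rsph14 (adjusted p = 0.0603) and Cfap43 (adjusted p = 0.0651) were lost. Signal over background limits Gmnc and Cfap20dc on the CS arrays and the 4 untested genes. Dnah17 and Dnah1 were well above background on every array but dim, with mean levels of -3.94 and -4.25. Their sizes depended on the background correction. With normexp Dnah17 went from 0.76 to 0.39 in CS minus air, and Dnah1 from 0.32 to 0.02 in IQOS minus CS.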
